A study of Homo sapiens with 33 samples.

Results

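The trophectoderm is the outer layer of the blastocyst that gives rise to the placenta, and the amnion is a thin epithelium that later encloses the embryo. A set of 8 regulators was described across all genotypes and marks: the transcription factors CDX2, GATA2, GATA3, TFAP2A, TFAP2C, TP63 and ELF5, and the hormone gene CGA. They were chosen by name, with earlier results of these data known. All 8 were found among 35805 genes of the RNA table and among 35683 gene names of the promoter table, where they own 48 of 153958 windows. The cells were H9 human embryonic stem cells, an established line, grown on irradiated mouse feeder cells. The study asked what the loss of EZH2, the main methyltransferase of Polycomb repressive complex 2 (PRC2), does to these cells. EZH2+/+ was the parental line. EZH2-/+ carried a CRISPR/Cas9 mutation on one allele of EZH2. EZH2-/- carried mutations on both alleles and, per the methods, was made by targeting EZH2 again in EZH2-/+ cells that held a doxycycline-inducible EZH2 transgene. EZH2-/- +EZH2 was the same mutant line with the transgene induced by doxycycline, so that these cells also differed from EZH2-/- by the drug. The mutant lines were derived from single colonies, so that between different lines a genotype cannot be told apart from the history of its clone. Per the methods, cells were sorted for the surface antigen SSEA4 before RNA was taken.

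RNA was sequenced from 3 libraries of each genotype, 12 in all, with 16587860 to 36589089 reads on genes per library. Levels are given as RPM, the reads of a gene or window scaled to a library of 1000000 reads, and 3 reads correspond to between 0.0528 and 0.12 RPM depending on the library. The mark H3K27me3, which PRC2 places, and the marks H3K4me3, H3K27ac and H3K4me1 were measured by chromatin immunoprecipitation in each genotype beside an input, and binding of EZH2 in EZH2+/+ only. The promoter table holds 1 value per genotype and mark, for which the labels name 2 libraries (1 for EZH2). The study describes its ChIP-seq data as averages over 3 biological replicates of a line, and reports a ChIP-qPCR check at several promoters. With 1 value each, the promoter differences given here have no replicate check and no test. Their intervals cover counting error only, taking 2 libraries per histone column. The targeted gene EZH2 fell from a mean of 63.8 ± 4.56 RPM (SD, n = 3) in EZH2+/+ to 9.95 ± 1.44 RPM in EZH2-/-, was at 51.2 ± 4.95 RPM in EZH2-/+, and reached 304 ± 70.6 RPM with the transgene. The 10 pluripotency genes together held 2425 to 4442 RPM in every library, and 0 of the 10 passed a limma test between EZH2-/- and EZH2-/- +EZH2 (1 at an unadjusted p under 0.05, SOX2, 1 with the replicate block and 0 by voom). Against EZH2+/+, 7 of the 10 were higher in EZH2-/- and 1 was lower, among them NANOG at 1.98 ± 0.38 and SOX2 at -1.05 ± 0.21 on the log2 scale (limma adjusted p = 0.0022 and 0.0026). Of all genes tested, 3.15% passed against EZH2-/- +EZH2 and 31.4% against EZH2+/+, with 12.6% as higher. In EZH2-/- +EZH2 against EZH2+/+, 5 of the 10 were higher and 0 lower, where 10.3% of all genes passed. The median log2 fold change of the 10 against EZH2+/+ was 0.77 in EZH2-/- +EZH2 and 0.80 in EZH2-/-.

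In the blastocyst CDX2, GATA2, GATA3, TFAP2A and TFAP2C are transcription factors of the early trophoblast network, and TFAP2C is also made by pluripotent cells. TP63 marks epithelial progenitors, ELF5 marks trophoblast stem cells, and CGA encodes the alpha subunit shared by chorionic gonadotropin and the pituitary glycoprotein hormones. PRC2 binds CpG-rich promoters of developmental genes and trimethylates lysine 27 of histone H3, a mark associated with silence. Promoters that carry this mark together with H3K4me3 are called bivalent in embryonic stem cells.

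The promoters are shown first because the regulators differed in the density of CpG dinucleotides. RefSeq promoters of GRCh38.p14, from 250 bases before to 50 after a start, were matched for 7 of the 8 regulators, TFAP2C being the exception. A promoter each of CDX2, GATA2 and GATA3, which carried H3K27me3, is set against that of CGA, which did not. Of the 2 listed promoters of GATA2 and the 6 of GATA3, the one with the most CpG is shown. CpG dinucleotides are in capitals, and each sequence reads from 5′ to 3′ on the strand of its gene.
CDX2, chr13:27969266-27969565, minus strand: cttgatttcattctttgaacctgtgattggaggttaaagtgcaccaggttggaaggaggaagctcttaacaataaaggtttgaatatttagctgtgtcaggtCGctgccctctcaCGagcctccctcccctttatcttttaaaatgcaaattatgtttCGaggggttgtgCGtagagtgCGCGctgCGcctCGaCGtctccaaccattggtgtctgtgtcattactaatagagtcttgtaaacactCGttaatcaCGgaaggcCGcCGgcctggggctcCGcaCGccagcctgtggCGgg
GATA2, chr3:128493152-128493451, minus strand: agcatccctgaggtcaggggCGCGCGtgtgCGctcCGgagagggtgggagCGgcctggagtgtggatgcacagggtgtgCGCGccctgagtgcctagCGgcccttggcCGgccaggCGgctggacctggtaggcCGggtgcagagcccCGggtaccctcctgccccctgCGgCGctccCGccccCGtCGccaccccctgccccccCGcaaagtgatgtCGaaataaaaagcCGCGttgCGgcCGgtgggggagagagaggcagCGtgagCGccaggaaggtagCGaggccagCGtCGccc
GATA3, chr10:8053391-8053690, plus strand: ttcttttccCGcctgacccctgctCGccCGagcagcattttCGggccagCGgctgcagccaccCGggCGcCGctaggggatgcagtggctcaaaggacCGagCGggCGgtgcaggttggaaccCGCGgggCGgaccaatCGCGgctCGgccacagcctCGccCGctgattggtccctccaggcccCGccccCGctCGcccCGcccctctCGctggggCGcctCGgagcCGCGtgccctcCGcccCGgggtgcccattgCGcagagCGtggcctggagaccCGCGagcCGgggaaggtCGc
CGA, chr6:87095057-87095356, minus strand: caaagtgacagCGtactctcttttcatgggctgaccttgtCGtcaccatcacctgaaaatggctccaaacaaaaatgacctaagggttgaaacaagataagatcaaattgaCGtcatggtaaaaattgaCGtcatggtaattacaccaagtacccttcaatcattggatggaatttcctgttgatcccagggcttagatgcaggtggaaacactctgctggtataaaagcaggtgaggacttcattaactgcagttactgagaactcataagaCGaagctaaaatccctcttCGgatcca

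The 300 bases shown held 36 CpG dinucleotides in GATA3, 29 in GATA2, 16 in CDX2 and 6 in CGA, and the median of 35116 such promoters was 14. The other listed promoter of GATA2 held 22, the other 5 of GATA3 held 16, 18, 16, 29 and 5, and both of TFAP2A held 18, so that 1 promoter of GATA3 was no richer in CpG than that of CGA. As many as 36 occurred in 12.7% of all promoters, and as few as 6 in 36.8%. The promoters of TP63 and ELF5 held 7 and 2. The CGA promoter held the cyclic AMP response element TGACGTCA 2 times, and each copy holds 1 of the capital pairs. That palindrome, which reads the same on both strands, was in 1.85% of all promoters and in no other promoter of the 7 matched regulators. The contrast in CpG was clearer over the 5 kb promoter windows of the deposited table, in which the window of TFAP2C held 383 CpG dinucleotides, that of CDX2 277, TFAP2A 244, GATA2 233 and GATA3 167. The windows of ELF5, TP63 and CGA held 70, 44 and 37, below the median of 107 over all gene names, and the other 5 lay above it.

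H3K27me3 in EZH2+/+ cells divided the regulators along the same line. For each gene name, the window with the most H3K27me3 in EZH2+/+ was used, a choice that favours high values in that genotype. For GATA3 this was chr10:8055899-8060899, which lies downstream of the GATA3 promoter shown above and does not hold it. The other 3 windows of GATA3 hold that promoter, with 29.6 to 31.8 RPM of H3K27me3 in EZH2+/+. H3K27me3 in the window used stood at 52.4 RPM for GATA2, 41.3 for TFAP2A, 40.6 for GATA3, 39.3 for CDX2 and 20.1 for TFAP2C, with input between 1.22 and 1.75 RPM. These values lay at or above the 95.9th percentile of all gene names. At ELF5, TP63 and CGA the mark stood at 1.93, 1.03 and 0.784 RPM, with input at 1.61, 2.07 and 2.2 RPM, so that only ELF5 among the 3 exceeded its input. By the thresholds of the study's methods for a marked promoter, a log2 RPKM above 0.1 for H3K27me3 and below 0.1 for input, the first 5 genes were marked and the last 3 were not. Applied here to RPM and to the window with the most H3K27me3, these thresholds took 6235 gene names, or 17.5%, and 4478 with the first listed window of each name, so the marked promoters meant here are not the set used in the study. EZH2 binding followed the mark: it was 8.01 RPM at GATA2, 7.3 at TFAP2A, 6.04 at CDX2, 5.02 at GATA3 and 1.75 at TFAP2C, against 0.182 or less at TP63, ELF5 and CGA and a median of 0.29 over all gene names.

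The 5 marked promoters also carried H3K4me3 in EZH2+/+. It was highest at TFAP2C, with 25.4 RPM against 20.1 RPM of H3K27me3, and TFAP2C was also the one regulator with RNA above 5 RPM in every library. H3K4me3 stood at 18.3 RPM at TFAP2A, 10.7 at GATA2, 10.1 at CDX2 and 9.3 at GATA3, each below the H3K27me3 of the same window, and between 1.27 and 1.89 RPM at the 3 unmarked genes. In the windows of GATA3 that hold the promoter shown above it was 12.2 to 17.5 RPM. RPM values of different antibodies are not on a common scale of occupancy. H3K27ac, a mark of active regulatory elements, was low at all 5 marked promoters, from 0.757 RPM at GATA3 to 1.67 at TFAP2C, below the median of 2.04 over all gene names. At CDX2, GATA2, GATA3 and TFAP2A it did not exceed the input of the same window, which was 1.23, 1.75, 1.22 and 1.36 RPM. H3K4me1 was high there, from 4.89 to 7.65 RPM against a median of 2.64.

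Loss of EZH2 was accompanied by low H3K27me3 at all 5 marked promoters. H3K27me3 at GATA2 was 52.4 RPM for EZH2+/+, 62.3 for EZH2-/+, 3.27 for EZH2-/- and 46.9 for EZH2-/- +EZH2. At GATA3 it was 40.6, 51.4, 1.63 and 35.7 RPM in that order. The 3 genotypes with EZH2 were thus far above EZH2-/- at both genes. On the log2 scale, with 0.1 RPM added, the change from EZH2+/+ to EZH2-/- was -4.55 at GATA3 (95% counting interval -4.99 to -4.12), -4.24 at TFAP2C (-4.81 to -3.67), -3.96 at GATA2 (-4.27 to -3.65), -3.31 at CDX2 (-3.60 to -3.02) and -3.27 at TFAP2A (-3.55 to -2.99). The median change was -3.67 over the 6235 marked promoters and -0.94 over all gene names. A change below -1 was seen at 7 of the 8 regulators, all but CGA, and at 48.0% of all gene names. Since TP63 had no more H3K27me3 than input in EZH2+/+ and ELF5 had 1.2 times its input, the changes of -1.29 and -1.76 at these 2 genes were falls within values near or under input, and neither was below -1 with 1 RPM added in place of 0.1.

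What was left of H3K27me3 in EZH2-/- differed between the marked promoters. In EZH2-/- cells TFAP2A held 4.19 RPM, CDX2 3.88, GATA2 3.27, GATA3 1.63 and TFAP2C 0.971, or between 4.02% and 10.1% of the EZH2+/+ value. RPM is scaled to the reads of each library, so these are not shares of an absolute amount of the mark. The study reports a complete loss at gene promoters, and ChIP-qPCR at background for promoters such as GATA4 and SOX17. All 5 exceeded the input of EZH2-/-, as did 20.9% of all gene names, and TFAP2A, CDX2 and GATA2 did so 3.73, 3.29 and 2.59 times, where the median of the marked promoters was 0.62. The rank of TFAP2A depended on the window: in EZH2-/- its window TFAP2A-001 held 2.42 RPM and TFAP2A-017 held 0.825 RPM. At GATA2 the window of GATA2-005 held 0.679 RPM in EZH2-/-, below its input of 1.38 RPM. Among the marked promoters, the H3K27me3 of EZH2-/- at TFAP2A, CDX2 and GATA2 lay at percentiles 97.1, 96.6 and 95.2, and in EZH2+/+ the same promoters lay at 96.3, 95.6 and 99.3. With the transgene, H3K27me3 came within 0.19 of EZH2+/+ on the log2 scale at CDX2, GATA2, GATA3 and TFAP2A, with changes of -0.11, -0.16, -0.19 and -0.08, and the value at TFAP2C was -0.39 (-0.59 to -0.19). The median over the marked promoters was -0.31. In EZH2-/+ the 5 marked promoters held more H3K27me3 than in EZH2+/+, by 0.25 at GATA2 to 0.48 at TFAP2C, where the median of the marked promoters was 0.06.

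**Figure D1:**
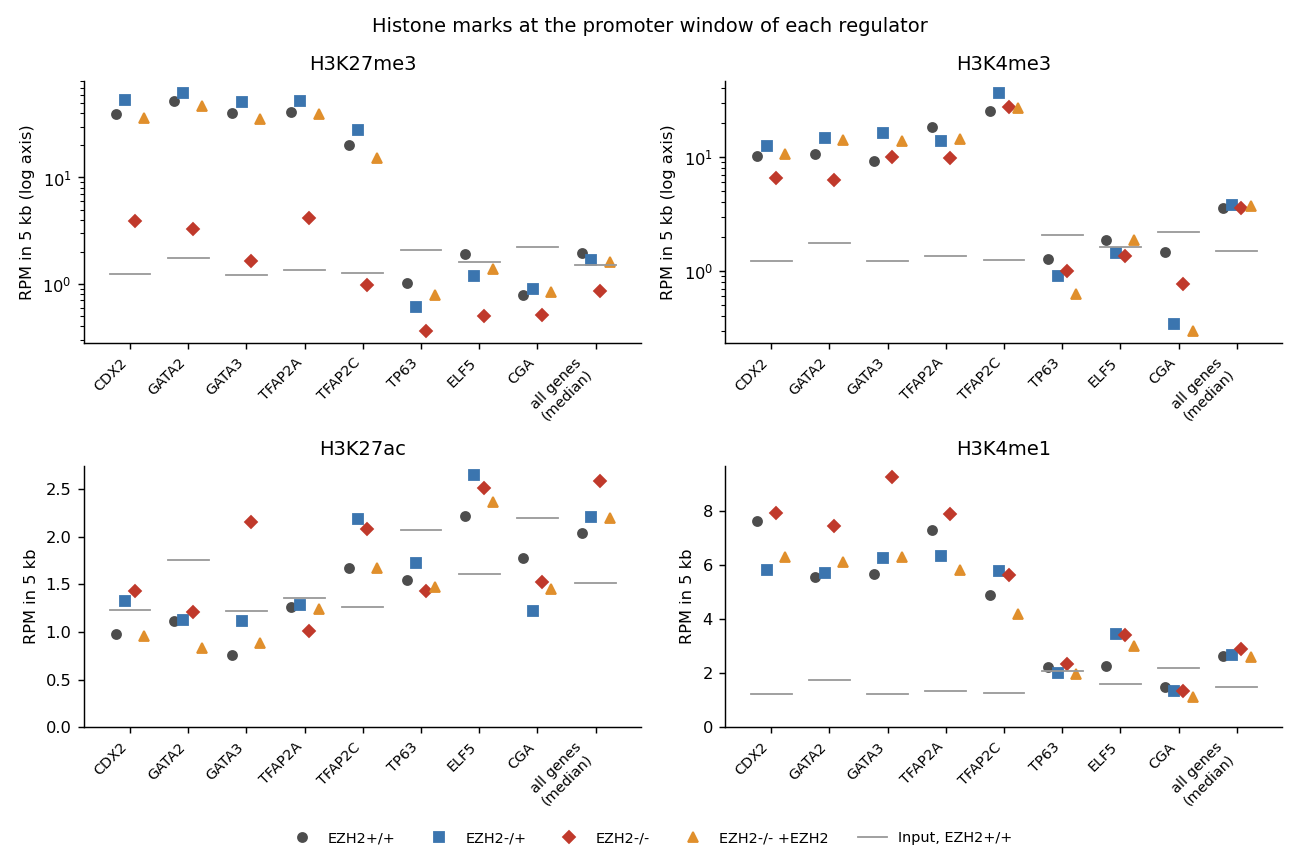
H3K27me3, H3K4me3, H3K27ac and H3K4me1 in RPM over the promoter window with the most H3K27me3 in EZH2+/+, for each regulator and for the median of all gene names. Each symbol is 1 genotype, grey lines give the input of EZH2+/+, and the axes of the upper panels are logarithmic; H3K27me3 of EZH2-/- lies between 0.971 and 4.19 RPM at the 5 marked genes, where the other genotypes lie between 15.3 and 62.3 RPM.

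H3K27ac did not move alike at the 5 marked promoters. At the selected window it rose past 1 on the log2 scale from EZH2+/+ to EZH2-/- at GATA3 alone, as at 9.18% of all gene names. At GATA3 it did so in that window but not in the other 3, which hold the GATA3 promoter shown above. H3K27ac at GATA3 was 0.757 RPM with intact EZH2, 1.11 in EZH2-/+, 2.15 without EZH2 and 0.886 after its restoration, a change of 1.39 (0.59 to 2.20) against EZH2+/+. The input of EZH2-/- in that window was 1.38 RPM, so that H3K27ac of GATA3 exceeded its input in EZH2-/- and, with an input of 0.884 RPM, in EZH2-/+, but not in EZH2+/+ or EZH2-/- +EZH2. The changes at CDX2, TFAP2C, GATA2 and TFAP2A were 0.50, 0.30, 0.11 and -0.29, and each of these intervals included 0. The median was 0.66 over the marked promoters and 0.31 over all gene names.

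At the selected windows H3K4me3 of GATA2, CDX2 and TFAP2A was lower in EZH2-/-, by an amount that depended on the genotype it was set against. At GATA2 it was 10.7 RPM with intact EZH2, 14.7 in EZH2-/+, 6.26 without EZH2 and 14 after its restoration. Against EZH2-/- +EZH2 the change was -1.15 (-1.43 to -0.87) at GATA2, -0.72 at CDX2 with an upper bound of -0.43, -0.56 (-0.79 to -0.32) at TFAP2A, -0.48 (-0.71 to -0.24) at GATA3 and 0.02 at TFAP2C, beside medians of -0.10 over the marked promoters and 0.05 over all gene names. GATA2 was the 1 regulator that fell past 1 in this contrast, as did 0.947% of all gene names. Against EZH2+/+ the changes were -0.90 (-1.22 to -0.58) at TFAP2A, -0.76 (-1.18 to -0.35) at GATA2 and -0.63 (-1.05 to -0.21) at CDX2, with 0.09 at GATA3 and 0.11 at TFAP2C. None of the 8 passed 1 there at the selected window, against 12.6% of all gene names, but the other window of CDX2, that of CDX2-001, changed by -1.36, and by -1.16 against EZH2-/- +EZH2. At TFAP2A the selected window had the lowest change of its 19 windows in both contrasts. The median of the 19 was 0.01 against EZH2-/- +EZH2 and -0.45 against EZH2+/+. The -1.15 of GATA2 was the lowest of 6 windows, with a median of -0.74. At GATA3 the 0.09 was the highest of 4 windows, the lowest being -0.42. H3K4me3 of EZH2+/+ was the shallowest of the histone columns, with a depth of about 3430000 reads, where EZH2-/- had 10300000 and EZH2-/- +EZH2 17400000. Promoters with no more H3K27me3 than input, taken as a reference, shifted by -0.46 against EZH2+/+ and by 0.07 against EZH2-/- +EZH2. Relative to the shift of -0.46 the changes against EZH2+/+ became -0.18 at CDX2, -0.31 at GATA2, -0.44 at TFAP2A, 0.55 at GATA3 and 0.56 at TFAP2C.

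The window chosen mattered for H3K27ac as well. TFAP2A has 19 windows and GATA2 6, and H3K27me3 fell past 1 in every one of them. At TFAP2A the H3K27ac change ran from -0.29 to 1.74, and it passed 1 in a single window, that of transcript TFAP2A-017 at chr6:10402094-10407094, the farthest downstream. H3K27ac there was 0.882 RPM with intact EZH2, 1.4 in EZH2-/+, 3.18 without EZH2 and 1.61 after its restoration. The other windows of TFAP2A lay upstream of it, and none of them passed 1. At GATA2 the highest H3K27ac change, 0.74, was likewise in the farthest downstream window, that of GATA2-005 at chr3:128479578-128484578, with 1.4 RPM in EZH2+/+ and 2.41 RPM in EZH2-/-. At GATA3 the window with the change of 1.39 was again the farthest downstream of its 4, that of GATA3-004 at chr10:8055899-8060899, and it was the 1 window of the 4 that passed 1, the lowest change being 0.58 and the median 0.60. Overlapping windows share reads and are not independent.

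Turning to RNA, TFAP2C was the most abundant regulator by far. Per kilobase of merged exon, it averaged 3.73 ± 0.805 RPM (SD, n = 3) in EZH2+/+, and its lowest library of any genotype, at 2.07, exceeded the highest library of any other regulator, at 1.1. In EZH2+/+ CDX2, TFAP2A, GATA3 and GATA2 followed with means of 0.314, 0.153, 0.11 and 0.042 RPM per kilobase, and the ranges of neighbours in this order overlapped except for GATA3 and GATA2. In EZH2-/- the order was TFAP2C, GATA3, GATA2, CDX2 and TFAP2A, with means of 7.9, 0.693, 0.467, 0.267 and 0.0944, and below TFAP2C every pair of neighbours overlapped. In RPM, 4 of the 5 regulators that passed the filter on low values, a mean of 0.1 RPM, averaged less than 1 RPM over the 12 libraries. In bulk RNA, a few cells with much RNA of a gene and many cells with little cannot be told apart.

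GATA2 and GATA3, zinc finger factors of the trophoblast network, were higher in EZH2-/- than in either control. GATA2 RNA was 0.155, 0.355 and 0.109 RPM in the 3 libraries of EZH2+/+ and 0.0735, 0.13 and 0.285 RPM in those of EZH2-/+. It was 0.739, 3.53 and 2.61 RPM in EZH2-/-, and 0.231, 0.161 and 0.52 RPM in EZH2-/- +EZH2. The 3 EZH2-/- libraries lay above all 9 others, although replicate 1 was far below the other 2. GATA3 RNA was 0.333, 0.507 and 0.284 RPM in EZH2+/+ and 0.49, 0.54 and 0.0534 RPM in EZH2-/+. The 3 libraries of EZH2-/- held 1.48, 3.74 and 1.84 RPM, and those with the transgene 0.206, 0.214 and 0.4 RPM. Again the EZH2-/- libraries lay above all 9 others. How many of all genes tested did so was not counted. Above every EZH2-/- +EZH2 library lay 13.5% of them, and above every EZH2+/+ library 20.6%. Against EZH2-/- +EZH2, the log2 fold change on the log2(RPM + 0.1) scale, which understates the change of genes this low, was 2.42 ± 0.55 (SE) for GATA2 and 2.64 ± 0.52 for GATA3, with adjusted p of 0.033 and 0.018 (limma, Benjamini-Hochberg). Against EZH2+/+ the values were 2.80 ± 0.55 and 2.29 ± 0.52, with limma adjusted p of 0.0025 and 0.0058. The calls against EZH2+/+ held in each of the 12 fits that left out a library. Those against EZH2-/- +EZH2 were lost for both genes in 4 of the 12 fits, without EZH2-/- replicate 2 or 3 or without EZH2-/- +EZH2 replicate 1 or 2, with limma adjusted p up to 0.19 for GATA2 and 0.11 for GATA3, and by voom on the reads, with adjusted p of 0.11 and 0.062. Leaving out a library of EZH2+/+ or EZH2-/+ kept these fold changes at 2.42 and 2.64, since it alters only the shared spread. Only fits without a library of the 2 genotypes compared can alter the fold change itself.

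The counting ignored strand, and GATA2 and its antisense neighbour GATA2-AS1 overlap, so their reads cannot be fully separated. GATA2-AS1 had 13 and 6 reads in EZH2-/- replicates 2 and 3 and none in the other 10 libraries, beside 188 and 88 reads of GATA2 in those 2 libraries. The neighbouring GATA3-AS1 had at most 6 reads in any library.

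TFAP2C, an AP-2 factor, was already transcribed in EZH2+/+ and was higher in EZH2-/-. Its RNA was 8.68, 11.4 and 13.5 RPM in EZH2+/+ and 7.74, 6.22 and 18.7 RPM in EZH2-/+. The 3 libraries of EZH2-/- held 22, 22.2 and 26.9 RPM, and those with the transgene 18.8, 15 and 20.7 RPM. All EZH2-/- libraries exceeded all EZH2+/+ libraries, and the libraries with the transgene lay between them and also above all of EZH2+/+. The log2 fold change against EZH2+/+ was 1.09 ± 0.33 (limma adjusted p = 0.023), a fold of 2.13, and against EZH2-/- +EZH2 it was 0.39 ± 0.33 (limma adjusted p = 0.59). The call against EZH2+/+ was lost in 4 of the 12 fits that left out a library, those without EZH2+/+ replicate 1 or 2 or EZH2-/- replicate 2 or 3, with limma adjusted p up to 0.086. Leaving out a library of EZH2-/+ or EZH2-/- +EZH2 kept this fold change at 1.09. TFAP2C RNA averaged 18.2 ± 2.93 RPM in EZH2-/- +EZH2 and 11.2 ± 2.43 RPM in EZH2+/+. H3K27me3 at its promoter was 15.3 and 20.1 RPM in the same order, and a link between the mark and the RNA was not tested. The RNA difference between these 2 genotypes, 0.70 ± 0.33 on the log2 scale, did not pass (limma adjusted p = 0.2).

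CDX2, a caudal homeobox factor needed for the trophectoderm of the mouse, varied as much within EZH2+/+ as between genotypes. Its RNA was 1.86, 1.34 and 0.109 RPM in EZH2+/+ and 0.0245, 0.0216 and 0 RPM in EZH2-/+. The 3 libraries of EZH2-/- held 0.246, 1.41 and 1.16 RPM, and those with the transgene 0.206, 0 and 0.12 RPM. The EZH2-/- libraries overlapped those of EZH2+/+ and lay above all of EZH2-/- +EZH2. EZH2+/+ replicate 3, with 5 reads, stood apart from the other 2, with 84 and 53. The log2 fold change in EZH2-/- was 0.05 ± 0.77 against EZH2+/+ (limma adjusted p = 0.97) and 2.20 ± 0.77 against EZH2-/- +EZH2 (limma adjusted p = 0.16), so neither passed the test. In EZH2-/+ only 2 reads were counted over 3 libraries, against 142 in EZH2+/+, a ratio of 78.1 with a 95% counting interval of 21.2 to 651. That difference, -2.87 ± 0.77 on the log2 scale, had a limma adjusted p of 0.13, and 0.011 without EZH2+/+ replicate 3. The promoter of CDX2 held 53.4 RPM of H3K27me3 in EZH2-/+ and 39.3 RPM in EZH2+/+. The mark was higher in EZH2-/+ at the other marked regulators too, and a link to the RNA was not tested.

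TFAP2A, the other AP-2 factor, showed no detectable rise of RNA in EZH2-/-, although H3K27me3 at its selected window fell about as far as that of CDX2. The median change over its 19 windows was -3.82 against EZH2+/+. Its RNA was 0.488, 2.46 and 0.83 RPM in EZH2+/+ and 0.049, 0 and 0.552 RPM in EZH2-/+. The 3 libraries of EZH2-/- held 0.387, 1.2 and 0.742 RPM, and those with the transgene 0.437, 0.322 and 0.799 RPM. The EZH2-/- libraries overlapped those of EZH2+/+, and replicate 1 lay below all 3 of them. The log2 fold change was -0.46 ± 0.69 against EZH2+/+ and 0.46 ± 0.69 against EZH2-/- +EZH2, with limma adjusted p of 0.64 and 0.78. Against EZH2+/+ the value for EZH2-/+ was -2.39 ± 0.69 (limma adjusted p = 0.16), and 0.016 was the adjusted p without EZH2-/+ replicate 3, the library with 31 of the 33 reads of that genotype.

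TP63, ELF5 and CGA, the regulators without H3K27me3 in EZH2+/+, were not among the 20608 genes tested. TP63 had 3 and 6 reads in EZH2-/- replicates 1 and 2, 1 read in EZH2+/+ replicate 2 and none in the other 9 libraries. ELF5 and CGA had no read in any of the 12 libraries, which allows up to 3 reads, or 0.12 RPM in the shallowest library. The beta subunits that pair with CGA were near their floor too: of 9 such genes 1 passed the filter, and their summed RNA was between 0.0751 and 0.587 RPM in every library.

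**Figure D2:**
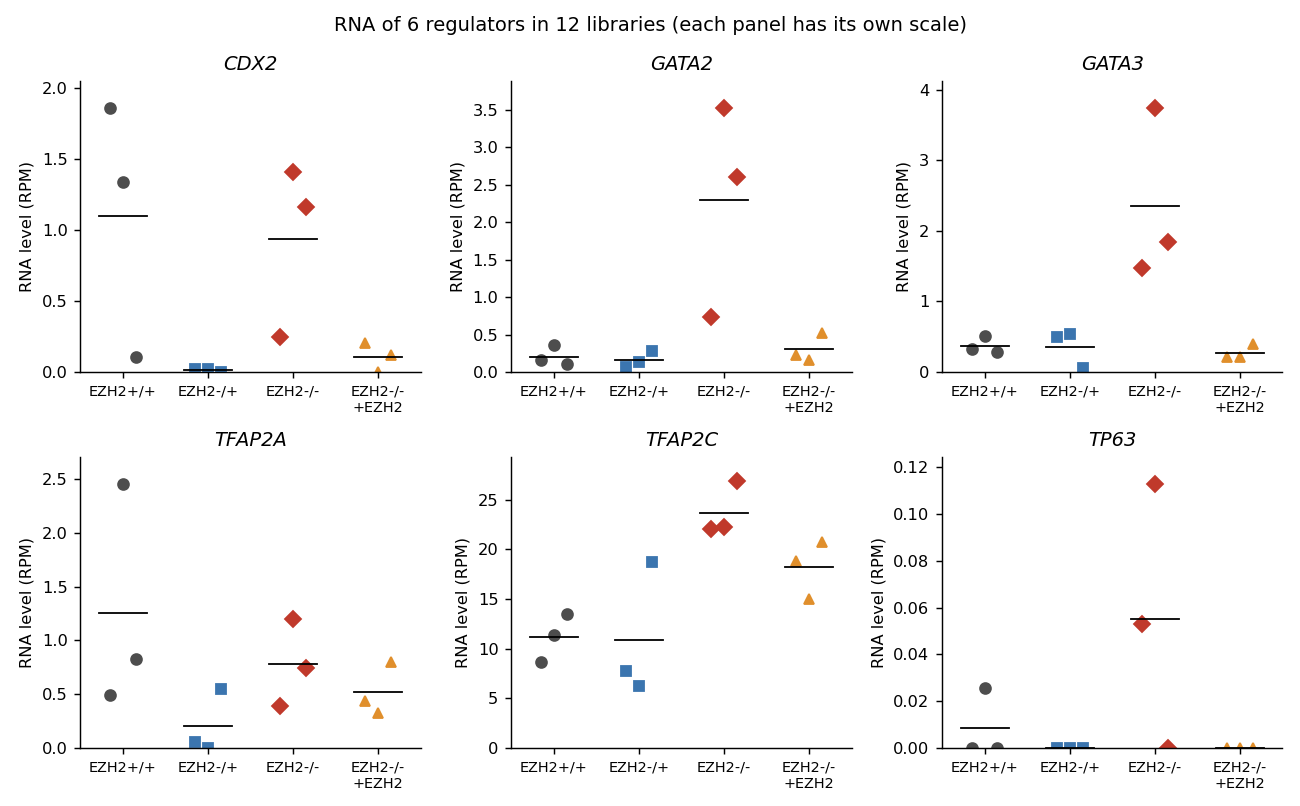
RNA of CDX2, GATA2, GATA3, TFAP2A, TFAP2C and TP63 in RPM, 1 symbol per library in the order of the replicate numbers, with the mean of each genotype as a line. GATA2 and GATA3 of the 3 EZH2-/- libraries lie above the other 9, CDX2 and TFAP2A of EZH2-/- overlap EZH2+/+, and TFAP2C is high in both EZH2-/- and EZH2-/- +EZH2.

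Of the 8 regulators 5 could be tested, and GATA2 and GATA3 passed as higher in EZH2-/- than in EZH2-/- +EZH2, where 3.15% of all genes tested passed in either direction and 2.63% as higher. Against EZH2+/+ GATA2, GATA3 and TFAP2C passed, where 31.4% passed in either direction and 12.6% as higher. With the replicate number as a block, the same 2 and 3 regulators passed. Of all genes 9.4% then passed in either direction and 6.19% as higher, and against EZH2+/+ 45.3% and 17.3%. No regulator passed between EZH2-/+ and EZH2+/+ in limma (0 of 5), where 1.15% of all genes did, or between EZH2-/- +EZH2 and EZH2+/+ (0 of 5), where 10.3% did. At an unadjusted limma p under 0.05, 2 of the 5, CDX2 and TFAP2A, were lower in EZH2-/+ than in EZH2+/+. So were 1672 of the 20608 genes tested, with 509 higher. By the same measure 1 of the 5, CDX2, was lower in EZH2-/- +EZH2, as were 3702 of the 20608, with 1532 higher. Voom on the reads also called none in these 2 comparisons. Every EZH2-/- library lay above every EZH2-/- +EZH2 library for 4 of the 5, as for 13.5% of all genes, and above every EZH2+/+ library for 3 of the 5, as for 20.6%. Of the 5, CDX2 in EZH2-/+ lay below every EZH2+/+ library, as did 11.9% of all genes, and TFAP2C in EZH2-/- +EZH2 lay above every one, as did 9.77%. The median log2 fold change of the 5 tested regulators was 2.20 against EZH2-/- +EZH2 and 1.09 against EZH2+/+, beside 0.02 and -0.13 over all genes. Since the regulators were chosen with earlier results of these data known, these contrasts with all genes are a description and not a test. The comparisons share libraries and are not independent of each other.

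**Figure D3:**
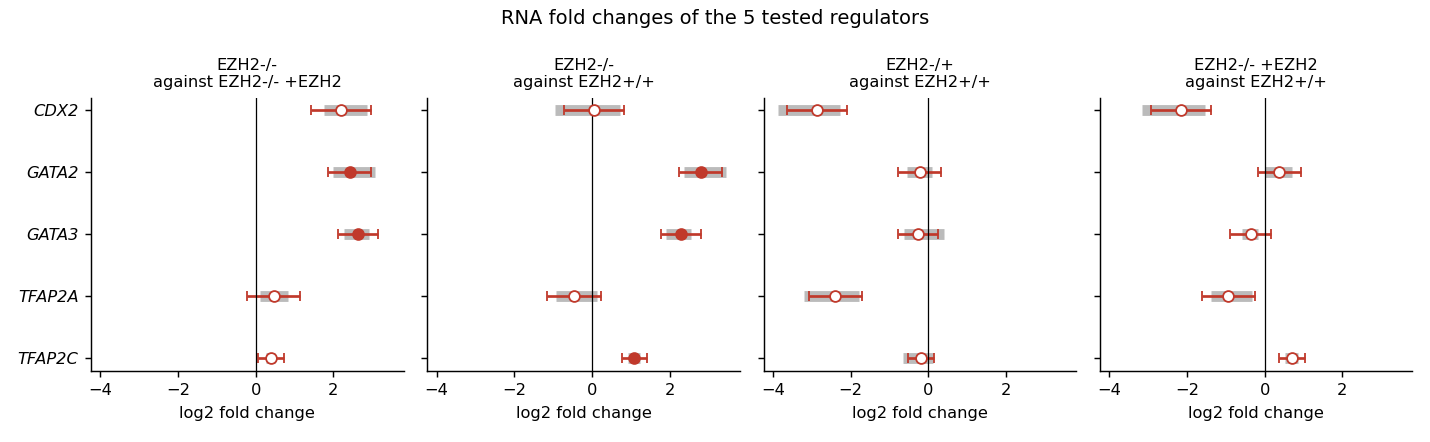
Log2 fold changes of the 5 tested regulators in the 4 comparisons, with the SE as a bar, filled circles for a limma adjusted p under 0.05, and the range over the 12 fits that each left out a library in grey. GATA2 and GATA3 lie between 2.29 and 2.80 in both comparisons of EZH2-/-, and CDX2 lies at 0.05 against EZH2+/+.

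Other genes of the trophectoderm and amnion were read from lists that exclude the 8 regulators, first between EZH2-/- and EZH2-/- +EZH2. These and the following lists were also chosen with earlier results of these data known. Some genes are on 2 lists, so the counts of different lists are not independent. Among them are MSX1 (neural crest and BMP response), BAMBI (amnion and BMP response), and GATA4 and GATA6 (mesoderm and endoderm, and relatives of the regulators). The calls of these and the following lists depended on the test: voom on the reads called 1 trophectoderm, 1 amnion, 1 surface ectoderm, 1 neural crest, 2 mesoderm and endoderm and 1 related gene as higher in EZH2-/- than in EZH2-/- +EZH2, and 0 blood and BMP response genes. Without each library in turn, the number higher ranged from 0 to 11 trophectoderm and from 2 to 6 amnion genes, with the lowest counts without EZH2-/- replicate 2 or 3 or EZH2-/- +EZH2 replicate 2, and for the amnion also without EZH2-/- +EZH2 replicate 1. Of the list genes named here, TBX3 and TWIST1 kept their call against EZH2-/- +EZH2 in all 12 such fits and by voom, ELF4 lost it without EZH2-/- replicate 2 only, and each of the others lost it in at least 4 fits. Fits without a library of EZH2+/+ or EZH2-/+ alter only the shared spread in this comparison. In limma 2.63% of all genes tested passed as higher in this comparison, and 6.19% with the replicate block. Of 30 trophectoderm and trophoblast genes 23 were tested, and 5 were higher and none lower in EZH2-/- than in EZH2-/- +EZH2 (9 and 0 with the replicate block), with a median log2 fold change of 1.16. HAND1, a factor of the trophoblast, amnion and heart, rose from 0.841 ± 0.933 to 23.3 ± 18 RPM (log2 fold change 4.41 ± 0.88, limma adjusted p = 0.019). The study counts HAND1 and TWIST1 with mesoderm genes. GRHL2, an epithelial factor, rose from 1.74 ± 0.363 to 5.48 ± 0.948 RPM and SLC40A1, an iron exporter, from 0.574 ± 0.341 to 4.01 ± 1.99 RPM, with limma adjusted p of 0.033 and 0.044. NR2F2, an orphan nuclear receptor, rose against EZH2-/- +EZH2 by 2.58 ± 0.54 (limma adjusted p = 0.022) and was lower than in EZH2+/+, by -2.30 ± 0.54 (limma adjusted p = 0.0066). VGLL1 and ERVFRD-1 of the same list had no read in any library. Of 12 amnion genes 9 were tested, and 4 were higher and none lower, with a median of 1.41. TBX3, a T-box factor, rose from 0.827 ± 0.642 to 11.2 ± 4.48 RPM (3.74 ± 0.50, limma adjusted p = 0.0028), and MEIS1 and IGFBP5 by 2.81 and 2.68 on the log2 scale (limma adjusted p = 0.018 and 0.023). MEIS1 and IGFBP5 were low in EZH2-/- +EZH2, at 0.449 and 7.9 RPM, and did not stand above EZH2+/+: they averaged 3.6 and 56.1 RPM in EZH2-/- and 5.29 and 108 RPM in EZH2+/+, with log2 fold changes of -0.24 and -1.13 (limma adjusted p = 0.77 and 0.14). The summed RNA of the amnion list was 83.6 to 217 RPM in EZH2-/-, 99 to 202 RPM in EZH2+/+ and 41.7 to 59.6 RPM in EZH2-/- +EZH2.

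Genes of other lineages moved in the same comparison. Of 12 mesoderm and endoderm genes, all tested, 4 were higher and none lower (8 and 0 with the block), with a median of 2.26, and their summed RNA was 206 to 329 RPM in EZH2-/- and 38.4 to 151 RPM in EZH2-/- +EZH2. SOX17, an endoderm factor, rose from 3.34 ± 1.01 to 20.5 ± 7.53 RPM (limma adjusted p = 0.027). Of 12 neural crest genes 4 were higher, with TWIST1, a mesenchymal factor, from 0.246 ± 0.0801 to 7.3 ± 1.48 RPM (limma adjusted p = 1.7e-05) and a list median of 0.91. Against EZH2+/+ the same list had 2 higher and 3 lower and a median of -0.02 (0.10 with scaling by median ratios), and without each library in turn the number lower ranged from 1 to 3, at 1 without EZH2+/+ replicate 1 or 2 or EZH2-/- replicate 1 or 3. In EZH2-/- +EZH2 against EZH2+/+, 6 of the 12 were lower and 1 was higher. Of 10 tested surface ectoderm genes 3 were higher (5 with the block), among them OVOL1 with 0.743 ± 0.333 and 3.54 ± 1.03 RPM (limma adjusted p = 0.026), and KRT5 and KRT14, which mark basal epithelium, had no read in any library. Of 10 tested blood and endothelium genes, which GATA2 also regulates, 1 was higher (4 with the block), with a median of 0.87. Without each library in turn the number higher ranged from 1 to 7 for mesoderm and endoderm, 1 to 5 for neural crest, 0 to 4 for surface ectoderm and 0 to 3 for blood and endothelium, each lowest without EZH2-/- replicate 2 or 3 among others. What part such cells had in the levels of the regulators was not tested.

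The close relatives of the regulators gave 2 higher and none lower of 13 tested (6 and 0 with the block), with a median of 0.95. ELF4, a relative of ELF5, rose from 6.67 ± 0.627 to 17.9 ± 2.52 RPM (limma adjusted p = 0.0091). CDX1 stood at 1.18 ± 0.836 and 6.64 ± 3.06 RPM, and did not pass (limma adjusted p = 0.053). Against EZH2+/+, with 1.77 ± 1 RPM, CDX1 was higher by 1.92 ± 0.63 (limma adjusted p = 0.034), a call lost without EZH2+/+ replicate 3 or EZH2-/- replicate 2 or 3. GATA6 and GATA4, which act in the endoderm and heart, stood at 29.2 ± 14.2 and 22.7 ± 13.9 RPM in EZH2-/- and passed against EZH2+/+ (limma adjusted p = 0.0071 and 0.015, the latter lost without EZH2+/+ replicate 3 or EZH2-/- replicate 2) but not against EZH2-/- +EZH2 (limma adjusted p = 0.087 and 0.13). BMP signalling drives human pluripotent cells towards amnion-like and trophoblast-like fates, and of 12 genes of the BMP response 2 were higher and none lower (7 and 0 with the block), with a median of 0.98. At an unadjusted p under 0.05, 1 gene of these lists other than SOX2 was lower, ELF2, a relative of ELF5. Without each library in turn, 0 to 5 relatives and 0 to 6 BMP response genes were higher, both at 0 without EZH2-/- replicate 2. The higher BMP response genes were BMP4, a ligand of the pathway, with 8.21 ± 2.07 and 23.2 ± 9.31 RPM (limma adjusted p = 0.037), and the target MSX1, with 0.651 ± 0.423 and 3.6 ± 1.93 RPM (limma adjusted p = 0.039). MSX1 was also counted among the higher neural crest genes. MSX1 averaged 3.39 ± 1.7 RPM in EZH2+/+, so that its level in EZH2-/- differed from that by 0.07 on the log2 scale (limma adjusted p = 0.93), while BMP4 was higher than in EZH2+/+ too, by 3.11 (limma adjusted p = 6e-05).

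Against EZH2+/+, where 12.6% of all genes passed as higher, the same lists gave other counts. Genes on more than 1 list, such as GATA4, GATA6 and BAMBI, were counted in each. Higher and lower in EZH2-/- were 12 and 2 of the 23 trophectoderm and trophoblast genes, 5 and 0 of the 9 amnion genes, 7 and 0 of the 10 surface ectoderm genes, 3 and 1 of the 10 blood and endothelium genes, 6 and 0 of the 12 mesoderm and endoderm genes, 5 and 1 of the 13 relatives and 5 and 1 of the 12 BMP response genes. Without each library in turn, the number higher ranged from 10 to 12, 5 to 5, 5 to 7, 2 to 3, 2 to 9, 3 to 5 and 4 to 6 in that order. The mesoderm and endoderm count was 2 without EZH2-/- replicate 2 and 3 without EZH2+/+ replicate 3, and the count of relatives was 3 without either.

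The genes whose pattern over the 12 libraries was nearest to that of a regulator were found by the root mean square distance between centred log2(RPM + 0.1) values among genes of at least 1 RPM, a description without a test. For TFAP2C they were RP4-758J18.13, NDUFA1 and CTD-2021H9.3, at distances of 0.205, 0.23 and 0.231. The other regulators averaged under 1 RPM, and the measure was extended to them after their values were seen. GATA3 lay nearest to GPR39, POMC and KIF26B, at 0.359, 0.377 and 0.412, and GATA2 to SYTL5, FN1 and ST3GAL1, at 0.437, 0.481 and 0.495. FN1, which encodes fibronectin, shared the high EZH2-/- level of GATA2, with 503 to 1262 RPM in EZH2-/- and 114 to 241 RPM elsewhere. CDX2 lay nearest to MSX1, ZNF503 and PAPPA, at 0.512, 0.612 and 0.747, and MSX1 shared its low level in EZH2-/+, with 0.367 to 0.498 RPM there and 1.44 to 4.53 RPM in EZH2+/+. For TFAP2A the nearest were RNF43, PLA2G2A and LINC01515, at 0.604, 0.649 and 0.66, beside a root mean square deviation of TFAP2A itself of 1.21.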

How the data were processed

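The authors trimmed reads with Trim Galore 0.4.0, mapped RNA reads with TopHat2 2.0.12 and ChIP reads with Bowtie2 2.2.5 to GRCh38, and deposited log2 values of RPM (reads scaled to 1000000 per library) per gene (Ensembl release 70) and per 5 kb window around each transcription start. Steps between low log2 values returned whole reads for 100% of values under 1000 reads (tolerance 0.02 reads), and a gene without a read, set by the authors to 0.9 of a read, was returned to 0. Promoter columns average the libraries of a genotype, and their depth was read in the same way.

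The 8 regulators and the gene lists were chosen with earlier results of these data known. RNA was tested with limma 3.58.1 (R 4.3.3, moderated with a trend) on log2(RPM + 0.1), all 12 libraries in 1 fit, over the 20608 of 35805 genes that averaged 0.1 RPM or more, with Benjamini-Hochberg adjustment and a threshold of 0.05. The script was tested on simulated data. No count model was used as the main test because the deposited unit is log2. The labels number libraries 1 to 3 in every genotype, and libraries of the same number deviated together from their group means (18 of 18 pairs above 0.1, mean correlation 0.332, against -0.159 between numbers), so a fit with the number as a block was run beside each test. The labels do not say what a number marks, so p-values measure the spread between these libraries. Named genes of each list, at most 4, had a mean of at least 1 RPM and passed in either comparison of EZH2-/-, taken by the size of their change against EZH2-/- +EZH2. Lengths are merged exons of GENCODE 44, and promoter sequences are from RefSeq. CpG in windows was read from the GRCh38 genome. Intervals and floors cover counting error only.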

Additional observations from a re-analysis of the deposited data

How the results depend on the processing

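Counts of regulators called depended on the libraries and the test. Between EZH2-/- and EZH2-/- +EZH2 the 2 calls became 0 by voom on the reads, 0 with a filter of 1 RPM, which GATA2 and GATA3 do not pass, 1 (GATA3) with the 6 libraries of the comparison alone, 1 (GATA3) with libraries numbered 1 and 2, a setting chosen after seeing the data, and 0 to 2 when each library was left out. Against EZH2+/+ the 3 calls became 1 (TFAP2C) under the 1 RPM filter and 2 to 3 without a library. In EZH2-/+ and in EZH2-/- +EZH2 against EZH2+/+, 0 became 2 with libraries 1 and 2 alone (CDX2 with TFAP2A, and CDX2 with TFAP2C) and 0 to 1 without a library: CDX2 in both comparisons without EZH2+/+ replicate 3, and, without EZH2-/+ replicate 3, TFAP2A in the former and TFAP2C in the latter. The replicate block left the calls of the regulators at 2, 3, 0 and 0. The other settings kept these counts, and the 7 promoters past 1 in H3K27me3 became 5 with 1 RPM added (without TP63 and ELF5) and stayed 7 under the other window choices and the centring. The cause of these changes was not tested.

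Directions turned only for uncalled values. Against EZH2+/+, CDX2 in EZH2-/- was -0.07 with 1 RPM added, -1.22 with libraries 1 and 2 and -0.95 to 0.71 without a library, and TFAP2A -0.93 to 0.13. In EZH2-/+, GATA2 ranged from -0.54 to 0.10, GATA3 from -0.63 to 0.40 (0.26 with libraries 1 and 2) and TFAP2C from -0.66 to 0.12. GATA2 in EZH2-/- +EZH2 was -0.21 with libraries 1 and 2.

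Over all genes, 650 calls between EZH2-/- and EZH2-/- +EZH2 became 1937 with the block, 274 by voom, 288 under the 1 RPM filter and 137 without EZH2-/- replicate 2. Between EZH2-/+ and EZH2+/+, 236 became 594 with the block and 10 with 6 libraries, and between EZH2-/- +EZH2 and EZH2+/+, 2123 became 4611 with the block. Scaling by median ratios turned 2593 higher and 3870 lower genes of EZH2-/- against EZH2+/+ into 3378 and 2822, and 701 and 1422 of EZH2-/- +EZH2 into 1030 and 877, and left the regulators called at 2, 3, 0 and 0. Promoter values have 1 column per genotype, and 4 of the 5 tested regulators averaged under 1 RPM, which limits what these depths can show.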
